A study of Homo sapiens with 10 samples.

Results

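The genes of the mitochondrial genome were examined in RNA-seq data of NB4 cells, a line derived from acute promyelocytic leukemia. Members were all rows of the deposited gene tables whose symbol starts with MT-, and 37 of 60603 genes met this rule in each table. In the GSE1 knockdown, cells were transduced with pLKO.1 puro lentivirus, either empty (EV) or with 1 of the shRNAs shA1 and shB2 that target GSE1, and were harvested 48 h later. In the LSD1 inhibition, cells received DMSO or the LSD1 inhibitor MC2580 at 2 µM for 24 h, without a vector. Each group had 2 replicates, which gives 6 libraries in the knockdown and 4 in the inhibition. NB4 is a single cell line, and the knockdown groups are lentivirus-transduced populations of it.

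The value used was the authors' base mean, the average over all libraries of an experiment of the counts divided by size factors. It pools the control and the perturbed cells, so it states how abundant a transcript was in an experiment and holds neither a difference between groups nor a replicate error. The study asked how GSE1 depletion and LSD1 inhibition change the transcriptome of these cells, and the shA1, shB2 and MC2580 effects on the mitochondrial genes were not analysed here. The knockdown table lists a base mean under the header of each shRNA, with equal values in all 60603 rows, so the header of 1 shRNA does not mark a value of its own; that the mean covers all 6 libraries is taken from this and from how base means are defined. The 2 tables were normalised separately, so a value or ratio set across them depends on that and carries no test.

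Mitochondria keep a small circular genome that encodes core subunits of the respiratory chain, together with the rRNAs and tRNAs that translate them. Both of its strands are transcribed as long precursor RNAs, which are cut mostly at the tRNAs that lie between the other genes, and most of the resulting mRNAs receive a short poly(A) tail. All remaining respiratory chain subunits, and every protein that copies, transcribes or processes mitochondrial nucleic acid, are made from nuclear genes. In hematopoietic cells, as elsewhere, these transcripts are among the most abundant polyadenylated RNAs.

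All 37 members were found in the GENCODE release 44 annotation of chrM on GRCh38, which has 16569 bases. They comprise 13 protein-coding genes, 2 rRNA genes and 22 tRNA genes, and they cover 92.7% of the sequence. Of the 36 pairs of map neighbours, 20 have no base between them and 5 overlap, and the longest gap is 31 bases, between MT-TN and MT-TC. The plus strand holds 28 members and the minus strand 9, namely MT-ND6 and 8 tRNA genes. Several borders between genes are printed here because they show how tightly the genes are packed, which bears on how reads of neighbouring genes can be told apart. The lines that follow are places where protein-coding genes share bases, with the start codon of MT-ATP6, the stop codon of MT-ATP8 and the 7 bases common to MT-ND4L and MT-ND4 in capitals.
MT-ATP6 start within MT-ATP8, chrM:8513-8542, plus strand: ccctgagaaccaaaATGaacgaaaatctgt
MT-ATP8 end within MT-ATP6, chrM:8556-8585, plus strand: tgcccccacaatccTAGgcctacccgccgc
MT-ND4L end and MT-ND4 start, chrM:10748-10777, plus strand: aaacctactccaATGCTAAaactaatcgtc

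The reading frames of 6 of the 13 protein-coding genes stop short of a full stop codon in the annotation, 5 of them with a single T and 1 with TA. Polyadenylation supplies the missing A bases of such codons, so these genes end where their poly(A) tail begins. The next lines show 4 of the 6 ends, with the unfinished stop codon in capitals and the first bases of the following tRNA gene after it.
MT-ND1 end and MT-TI start, chrM:4248-4277, plus strand: tccccctcaaaccTAagaaatatgtctgat
MT-ND2 end and MT-TW start, chrM:5497-5526, plus strand: tactaataatcttaTagaaatttaggttaa
MT-ND4 end and MT-TH start, chrM:12123-12152, plus strand: ccgggttttcctctTgtaaatatagtttaa
MT-CYB end and MT-TT start, chrM:15873-15902, plus strand: tactcaaatgggccTgtccttgtagtataa
In each of the 4, the tRNA gene starts at the next base. The remaining 2 genes of this kind are MT-CO3 and MT-ND3, which also end in a single T and are followed directly by MT-TG and MT-TR. MT-CO1 and MT-ND6 end in AGA and AGG, triplets that do not code for arginine in human mitochondria.

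The members held 4.21% of the summed base mean of all genes in the knockdown and 5.08% in the inhibition. Their summed base mean was 1705387 of 40543130 in the first and 2094017 of 41201112 in the second. A base mean of at least 10 was reached by 15 of the 37 members in each table, namely all 13 mRNA genes and both rRNA genes. The mRNA genes carried 93.3% of the mitochondrial signal in the knockdown and 94.7% in the inhibition, the rRNA genes 6.72% and 5.29%. In each table, 4 members were among the 10 genes with the highest base mean and 10 were among the highest 50. The gene with the highest base mean was MPO, the myeloperoxidase of promyelocyte granules, at 506765 and 824818.

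Of 7 myeloid markers, 6 had a base mean of at least 10 in each table. The same cut was passed in each table by 3 of 3 epithelial, 2 of 3 T cell and 2 of 3 B cell markers. Of 3 erythroid markers, 1 passed in the knockdown and 0 in the inhibition. Over all 60603 genes, 15854 passed in the knockdown and 16041 in the inhibition. The cut therefore does not tell cell types apart. The myeloid marker below it was ELANE, the neutrophil elastase gene, at 1.10 in the knockdown and 3.87 in the inhibition. Of the markers of other lineages, HBA1 of erythroid cells was listed at 0 in both tables, HBB was at 11.7 in the knockdown and listed at 0 in the inhibition, and ALB of hepatocytes was at 5.51 and 3.30. CD3E of T cells was at 1.55 and 2.98, whereas CD3D was at 866 and 869, and CD4, which myeloid cells also express, was at 6037 and 2961. The B cell genes MS4A1 and CD79A ranged up to 121 and 116, and the epithelial genes EPCAM, KRT8 and KRT18 up to 906 and 668. All libraries come from the single line NB4, so these marker values are not a measure of mixed lineages. Their source and their part in the mitochondrial values were not tested. In bulk samples fewer cells of a type and less RNA per cell cannot be told apart.

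Complex IV, cytochrome c oxidase, passes electrons to oxygen, and MT-CO1, MT-CO2 and MT-CO3 encode its catalytic core. MT-CO1 (ENSG00000198804.2, chrM:5904-7445, plus strand) had a base mean of 316707 in the knockdown and 386980 in the inhibition, the third highest of all genes in each. MT-CO2 (ENSG00000198712.1, chrM:7586-8269, plus strand), which binds the CuA centre, had base means of 174240 and 184337. MT-CO3 (ENSG00000198938.2, chrM:9207-9990, plus strand) had base means of 184469 and 250181. Because a longer gene collects more reads, levels of different genes were compared per kilobase of annotated gene. On that scale MT-CO2 was the highest member in the knockdown, at 254737 per kb, and MT-CO3 in the inhibition, at 319109 per kb. The 3 genes lay within 205387 to 254737 per kb in the knockdown and within 250960 to 319109 per kb in the inhibition, so the order among them differed between the tables. Together they made up 39.6% and 39.2% of the mitochondrial signal.

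Complex I, the NADH dehydrogenase through which most electrons enter the chain, takes 7 subunits from this genome. These 7 genes held 39.9% of the mitochondrial signal in the knockdown and 41.4% in the inhibition, but they were spread widely. Such shares are not corrected for length. Pooled over its 6356 bases, complex I stood at 106988 and 136250 per kb. Complex IV stood at 224390 and 272923 per kb over its 3010 bases. MT-ND4 (ENSG00000198886.2, chrM:10760-12137, plus strand), a proton-pumping subunit of the membrane arm, had base means of 288893 and 392103, or 209647 and 284545 per kb. It was the only subunit gene of complex I within the range of the complex IV genes in either table. MT-ND1 (ENSG00000198888.2, chrM:3307-4262, plus strand), which helps form the quinone site, stood at 132003 and 143097 per kb. MT-ND2 (ENSG00000198763.3, chrM:4470-5511, plus strand), also of the membrane arm, stood at 107756 and 129578 per kb, the median of the 13 mRNA genes in both tables. MT-ND3 (ENSG00000198840.2, chrM:10059-10404, plus strand) had 58283 and 65500 per kb. MT-ND5 (ENSG00000198786.2, chrM:12337-14148, plus strand), the longest member at 1812 bases and another proton-pumping subunit, had 48465 and 68062 per kb. MT-ND4L (ENSG00000212907.2, chrM:10470-10766, plus strand) was the lowest of the 13 in both tables, with base means of 9311 and 7467, or 31352 and 25141 per kb. This rank holds for the whole gene length and not with 200 bases taken off each gene, where MT-ND5 was the lowest, at 54478 and 76507 per kb against 95995 and 76978 for MT-ND4L.

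MT-ND6 (ENSG00000198695.2, chrM:14149-14673, minus strand) is the only protein-coding gene read from the other strand, and its mRNA is known to carry little or no poly(A) tail. Its base means were 35351 in the knockdown and 48618 in the inhibition, or 67336 and 92607 per kb. That lay above its neighbour MT-ND5 in both tables, which had 0.720 and 0.735 times the level of MT-ND6 per kb. MT-CO1 exceeded MT-ND6 per kb by 3.05 and 2.71 times. MT-ND6 also differs in composition, with 35.6% G and 7.05% C in its coding strand, against 6.28% to 16.2% G and 29.5% to 36.0% C in the 12 plus-strand genes. The minus-strand members together held 2.07% and 2.32% of the mitochondrial signal. The library kit does not mark strand, so reads of MT-ND6 and reads of any plus-strand RNA across it cannot be told apart. The minus-strand share has the same limit.

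Complex III, the cytochrome bc1 complex, takes a single subunit from this genome, cytochrome b. Its gene MT-CYB (ENSG00000198727.2, chrM:14747-15887, plus strand) had base means of 71365 and 80475, or 62546 and 70531 per kb, below the median of the mRNA genes in both tables. Complex V is the ATP synthase, for which MT-ATP6 encodes the proton channel subunit and MT-ATP8 a small membrane subunit. MT-ATP6 (ENSG00000198899.2, chrM:8527-9207, plus strand) had base means of 144289 and 191214, or 211878 and 280784 per kb. MT-ATP8 (ENSG00000228253.1, chrM:8366-8572, plus strand) had base means of 19716 and 24004, or 95245 and 115962 per kb.

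**Figure D1:**
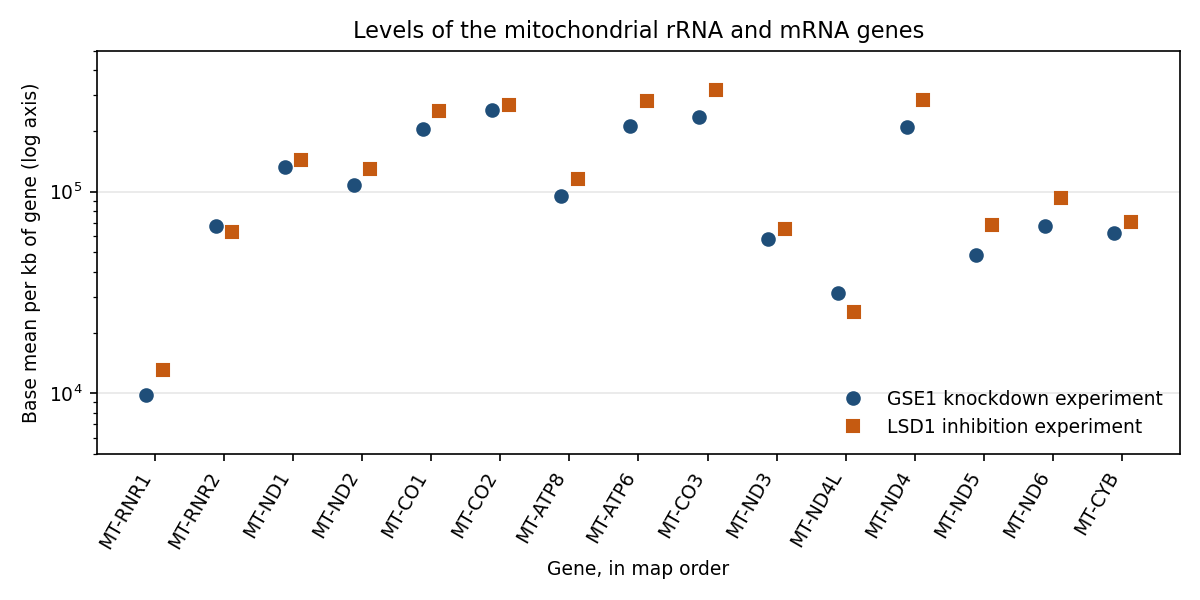
Base mean per kilobase of gene (log axis, whole gene length) of the 2 rRNA and 13 mRNA genes in map order, circles for the GSE1 knockdown and squares for the LSD1 inhibition; each point is the authors' pooled value and has no error. Complex IV genes, MT-ATP6 and MT-ND4 form the upper group, while MT-RNR1 and MT-ND4L are the lowest in both tables.

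MT-ATP8 and MT-ATP6 share 46 bases and are carried on 1 mRNA, and so are MT-ND4L and MT-ND4, which share 7 bases. Within each pair the levels per kb nevertheless differed. MT-ND4 exceeded MT-ND4L by 6.69 times in the knockdown and by 11.3 times in the inhibition, and MT-ATP6 exceeded MT-ATP8 by 2.22 and 2.42 times. MT-ND4L, MT-ATP8 and MT-ND3 are the 3 protein-coding members of at most 500 bases, with 297, 207 and 346 bases. They stood between 31352 and 95245 per kb in the knockdown, the other 10 between 48465 and 254737. When 200 bases were taken off each gene as a stand-in for the fragment length, MT-ND4 still exceeded MT-ND4L by 2.55 times in the knockdown and by 4.32 times in the inhibition, and MT-ATP8 was left with 7 bases, too few for a level to be read. How the estimated counts were divided between the genes of a pair was not tested. From MT-ND1 to MT-CYB the 12 plus-strand mRNA genes gave a Spearman's rho between map order and level per kb of -0.43 in the knockdown and -0.30 in the inhibition, a description over genes that share libraries and precursor RNA.

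The rRNA genes encode the RNAs of the mitochondrial ribosome. MT-RNR2 (ENSG00000210082.2, chrM:1671-3229, plus strand), the 16S rRNA of the large subunit, had base means of 105194 and 98448, or 67475 and 63148 per kb. MT-RNR1 (ENSG00000211459.2, chrM:648-1601, plus strand), the 12S rRNA of the small subunit, had base means of 9388 and 12370, or 9841 and 12967 per kb, below every mRNA gene. MT-RNR2 exceeded MT-RNR1 per kb by 6.86 times in the knockdown and by 4.87 times in the inhibition. Both are cut from the same precursor, and a ribosome holds 1 of each. The library kit selects for poly(A) RNA, so the amount of each rRNA in the cell cannot be read from these values.

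The 22 tRNA genes were close to undetected. Of them, 18 were listed at 0 in each table and 0 reached a base mean of 10, and together they held 0.000224% of the mitochondrial signal in the knockdown and 0.000288% in the inhibition. The highest was MT-TC, the tRNA for cysteine (ENSG00000210140.1, chrM:5761-5826, minus strand), at 1.44 and 5.22. MT-TY, the tRNA for tyrosine, was at 1.32 and 0.280, and MT-TT, the tRNA for threonine, at 0.878 and 0.241. MT-TV, the tRNA for valine, was listed at 0.190 in the knockdown only, and MT-TH, the tRNA for histidine, at 0.296 in the inhibition only. Genes that flank the tRNAs were among the most abundant of all, such as MT-ND4 and MT-CO1. The tRNA genes have 59 to 75 bases, and mature tRNAs carry no poly(A) tail; the part of either in these values was not tested.

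**Figure D2:**
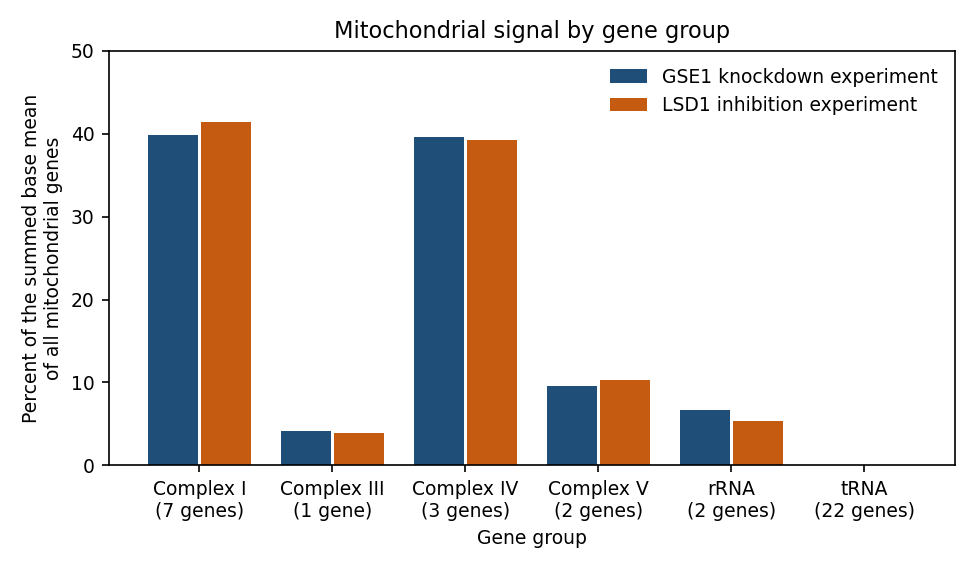
Percent of the summed base mean of all 37 mitochondrial genes held by each gene group, with 1 bar per experiment and no error, since each value is pooled over libraries. Complexes I and IV hold between 39.2% and 41.4% each, without correction for gene length, and the tRNA genes are not visible on this scale.

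The order of the members was similar in the experiments. The Spearman's rho between the tables over the 13 mRNA genes was 0.96 for the level per kb, a description across genes that share gene lengths and the cell line. For the 15 members with a base mean of at least 10, the ratio of the base mean in the inhibition to that in the knockdown had a median of 1.22 and ran from 0.802 for MT-ND4L to 1.40 for MT-ND5. It was above 1 for 13 of them, and below 1 for MT-ND4L and MT-RNR2, the latter at 0.936. Over the 15383 genes with such a base mean in both tables, the median ratio was 0.991, with 5% of genes below 0.532 and 5% above 1.75. All 15 ratios lay between these bounds. The experiments differ in vector, in time after treatment and in the make-up of the pooled groups, and these cannot be told apart in this ratio.

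Sequences of the mitochondrial genome are also found in nuclear DNA as pseudogenes, and a read from such a copy can be hard to place. The tables list 394 nuclear pseudogenes named after a mitochondrial gene, of which 106 in the knockdown and 115 in the inhibition had a base mean above 0. Their summed base mean was 0.919% and 0.941% of that of the members, and MTATP6P1 alone made up 70.2% and 70.7% of it. All sequences compared here are those of the reference genome, and those of the NB4 cells were not examined. MTATP6P1 (ENSG00000248527.1) lies on chromosome 1 from 633696 to 634376, plus strand, and differs from MT-ATP6 at 10 of 681 bases, an identity of 98.5%. Its base mean was 11000.5 in the knockdown and 13934 in the inhibition, or 7.62% and 7.29% of that of MT-ATP6. To show how alike the copies are, the next lines give 30 aligned bases around the first mismatch that lies at least 15 bases into the alignment, with the mismatch in capitals.
MT-ATP6, chrM:8530-8559, plus strand: aacgaaaatctgttcGcttcattcattgcc
MTATP6P1, chr1:633699-633728, plus strand: aacgaaaatctgttcActtcattcattgcc
The longest stretch without a mismatch between them has 141 bases, and 11.9% of windows of 100 bases are identical.

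The other pseudogenes with high base means were lower relative to their mitochondrial genes. MTND2P28 (chromosome 1, 629640 to 630683) had base means of 1992 and 2122, or 1.77% and 1.57% of MT-ND2, with an identity of 98.4%. MTCO1P12 (chromosome 1, 631074 to 632616) had 2119 and 2989, or 0.669% and 0.772% of MT-CO1, with an identity of 98.6%. MTND4P12 (chromosome 5, 134926660 to 134928036, minus strand) had 439 and 465, or 0.152% and 0.119% of MT-ND4, with an identity of 95.8%. MTCO3P12 (chromosome 1, 634376 to 634922), which covers 69.8% of MT-CO3 at an identity of 98.2%, had only 29.2 and 36.1, or 0.0158% and 0.0144% of MT-CO3. MTATP6P1 and MTCO3P12 adjoin on chromosome 1 and are alike in identity, yet their shares of the mitochondrial gene differ widely. The longest stretch without a mismatch had 266 bases in MTND2P28, 245 in MTCO1P12, 124 in MTCO3P12 and 71 in MTND4P12. In the same order, 26.1%, 27.8%, 6.70% and 0% of windows of 100 bases were identical. MTND2P28 and MTCO1P12 thus had longer identical stretches than MTATP6P1 but lower shares of their mitochondrial genes. Adding these 394 pseudogenes to the members moved their share of the table only to 4.25% and 5.13%. Nuclear copies with symbols of another form were not counted. Reads from identical stretches cannot be assigned to either copy, and the values of each such pair are uncertain at least to that extent.

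**Figure D3:**
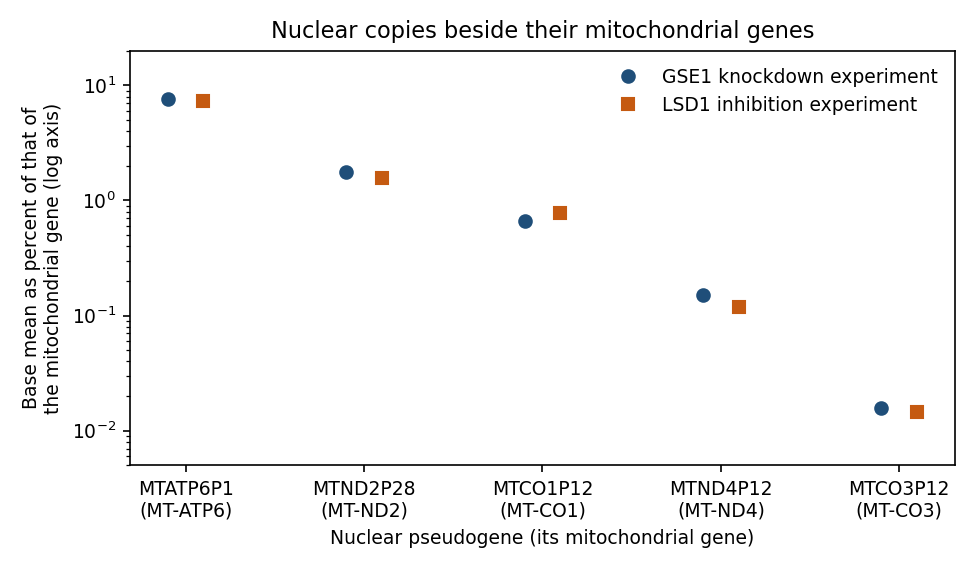
Base mean of the 5 nuclear pseudogenes with the highest values as a percent of that of the mitochondrial gene (log axis), circles for the GSE1 knockdown and squares for the LSD1 inhibition, without error. MTATP6P1 is the highest at 7.62% and 7.29%, and MTCO3P12 the lowest at 0.0158% and 0.0144%.

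Nuclear genes that act with the mitochondrial genome were set beside it on the same scale, with the length of the canonical transcript. Of the 20 nuclear partner subunits of complexes I, III, IV and V, all had a base mean of at least 10, with a median of 4223 per kb in the knockdown and 4398 per kb in the inhibition. The median of the mitochondrial mRNA genes was 25.5 and 29.5 times higher. The highest of these subunits were ATP5F1B, the catalytic beta subunit of ATP synthase, at 34967 and 28267 per kb, and COX4I1 of complex IV, at 18035 and 17918 per kb. Of the 13 mitochondrial mRNA genes, 12 exceeded all 20 subunits in each table, the exception being MT-ND4L, which was below ATP5F1B. The lowest subunits were UQCRFS1, the iron-sulfur protein of complex III, at 642 and 613 per kb, and NDUFS1 of complex I, at 252 and 166 per kb, whose canonical transcript has 11660 bases. With the length of all annotated exons in place of the canonical transcript the factors were 62.3 and 81.5, and all 13 mitochondrial mRNA genes exceeded every subunit. ATP5F1B then stayed the highest, whereas COX4I1 stood at 2857 and 2839 per kb. Among the subunits above COX4I1 in both tables were COX5A at 3482 and 3727 and CYC1 at 3100 and 3882. COX5A ranked second in the knockdown and CYC1 in the inhibition. NDUFS7, at 241 and 364 per kb, joined NDUFS1 as the lowest in place of UQCRFS1.

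The machinery that transcribes mitochondrial DNA was lower still. Its 10 genes had a median of 552 and 571 per kb, and all of them lay below every mitochondrial mRNA gene. POLRMT, the mitochondrial RNA polymerase, had base means of 2917 and 3763, and TFAM, which packs and activates the DNA, had 4338 and 3898. MRPL12, a ribosomal protein that also binds POLRMT, was the highest at 7522 and 11440 per kb, followed in the knockdown by MTERF4 at 1035 per kb and 1063 per kb in the inhibition. MTERF2 and MTERF1 were the lowest in the knockdown, at 192 and 202 per kb, and stood at 238 and 177 per kb in the inhibition. With the length of all exons MRPL12 was again the highest, but MTERF4 stood at 165 and 170 per kb, below TFAM at 821 and 738 and POLRMT at 577 and 744.

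For RNA processing and decay, 18 genes were found, 1 of them, PRORP, under its older symbol. Their median was 889 and 825 per kb. HSD17B10, a subunit of the mitochondrial RNase P, was the highest at 7800 and 9685 per kb, and SLIRP, which with LRPPRC stabilises mitochondrial mRNAs, followed at 5421 and 4777 per kb. MTPAP, the mitochondrial poly(A) polymerase, was the lowest in the knockdown at 188 per kb, against 197 in the inhibition, and PRORP, the nuclease subunit of RNase P, stood at 215 and 226 per kb. With the length of all exons HSD17B10 was again the highest, at 2637 and 3274 per kb, but SLIRP stood at 775 and 683, below TBRG4, FASTK and ELAC2. The 12 genes of mtDNA maintenance had a median of 622 and 587 per kb. SSBP1, the single-stranded DNA-binding protein, led them at 9346 and 12609 per kb, and DGUOK, a nucleoside kinase, followed at 3127 and 3464 per kb. TK2, the mitochondrial thymidine kinase, was the lowest at 92.7 and 89.7 per kb, and DNA2, a helicase-nuclease, stood at 287 and 210 per kb. With the length of all exons DGUOK led, at 2310 and 2559 per kb, and SSBP1 followed at 1272 and 1716, with TK2 again the lowest.

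**Figure D4:**
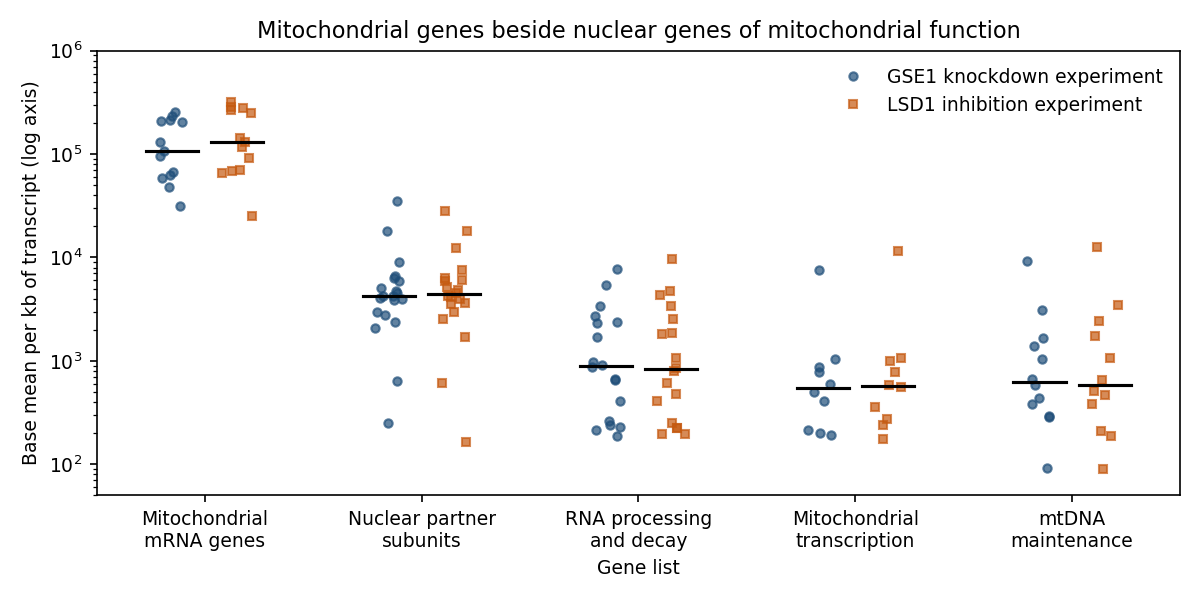
Base mean per kilobase (log axis) of the 13 mitochondrial mRNA genes and of 4 lists of nuclear genes, circles for the GSE1 knockdown, squares for the LSD1 inhibition and black lines for list medians; points are genes, spread sideways only to be seen. The mitochondrial medians are 107756 and 129578 per kb, against 4223 and 4398 for the partner subunits and between 552 and 889 for the other lists.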

How the data were processed

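RNA of NB4 cells was sequenced by mRNA-seq in 10 libraries, 2 per group. The authors prepared libraries with TruSeq v2, mapped reads to hg38 with STAR 2.7, estimated counts with RSEM, which divides reads that fit several transcripts, and fitted DESeq2; the annotation release is not given in the sources used here. The values in use were deposited by the authors as a signal, the base mean, an average over an experiment of counts divided by size factors. The tables also hold the authors' own comparisons (log2 fold change, standard error, Wald statistic, p-value and adjusted p-value), which were not used. Neither table gives values per library, so depth and replicate spread are unknown, the planned edgeR test was not run, and no interval is given.

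Members, classes and lists were chosen with earlier results of these data known. Named were all protein-coding and rRNA members, any tRNA gene whose base mean reached 10 (since 0 did, the 5 above 0 were named after their values were seen), the 5 highest pseudogenes, and the 2 highest and 2 lowest genes per kb of each list in the knockdown; POLRMT, TFAM, genes that changed rank with another length and cell type markers were named beside them, and some markers are not reported here. FASTKD4 and TBRG4 are 1 gene, counted once. Positions and lengths came from GENCODE release 44 on GRCh38, matched by 60261 of 60603 gene identifiers. Pseudogenes were aligned locally with Biopython 1.88 (match 2, mismatch -3, gap opening -5, extension -2). Shares, ratios and alignments were tested on simulated data with known answers.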

Additional observations from a re-analysis of the deposited data

How the results depend on the processing

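No paired analysis was possible because the values are pooled over libraries, and for the same reason leaving out a replicate, DESeq2 size factors and a low-count filter per library were not run. Values that stayed within 1.5 times the reported one count as unmoved, since no replicate spread is at hand. The share of the table held by the members stayed between 3.93% and 4.25% in the knockdown and between 4.83% and 5.13% in the inhibition over 4 alternatives (protein-coding genes only, without the rRNA genes, pseudogenes added, base mean of at least 10), and that of the minus strand was 2.22% and 2.45% over protein-coding members. The highest level per kb over the lowest among the 13 mRNA genes was 8.13 and 12.7. It moved to 51.7 and 44.8 with 200 bases taken off each length, which leaves MT-ATP8 with 7 bases. Without the genes that overlap another (MT-ATP8, MT-ATP6, MT-CO3, MT-ND4L and MT-ND4) it moved to 5.26 and 4.11. MT-CO3, the highest in the inhibition, was left out for 1 base shared with MT-ATP6. With pseudogenes added the ratio of highest to lowest was 8.13 and 12.7. At a minimum base mean of 1 in place of 10, 2 tRNA genes in the knockdown and 1 in the inhibition passed; at 50, 0 did. The factor between mitochondrial mRNA genes and nuclear partner subunits moved from 25.5 and 29.5 to 62.3 and 81.5 with exon union lengths, an alternative chosen after seeing the data. The same lengths moved 8 of the 16 named nuclear genes by over 1.5 times in each table and changed which ranked second or lowest, as given with each list.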
